A study of Rattus norvegicus with 48 samples.

Results

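The miR-200 family, also called the miR-8 family, was followed here through 8 of the 1063 mature and precursor miRNA names quantified by small RNA sequencing of rat brain. The members were the precursor names mir-141, mir-200c, mir-200a, mir-200b and mir-429 and the mature names miR-141-3p, miR-200a-3p and miR-200b-3p, taken by name from the normalized table, with lines of one name added up. The family was chosen with its values by region and treatment already known. Members of it also stand in the study's lists made from these same libraries. For miR-200b-3p and miR-141-3p those lists also rest on microarrays of the same pools, which are not used here. The values by region and treatment are therefore a description, with no p for a member. Where such a comparison is reported, the number of members called stands beside the share of all names called and nothing is read from it. The 48 libraries came from the amygdala and the ventral striatum of Long Evans rats at postnatal day 42, each made from pooled RNA of rats of one sex and treatment. Dams had received injections of ethanol or, as controls, of saline during pregnancy. After weaning, the offspring of both were housed either with littermates (non-enriched) or with unfamiliar rats of the same age and sex from an untreated dam (socially enriched). Each combination of prenatal treatment and housing had 6 libraries per region, of which 3 were female pools (here F1, F2 and F3) and 3 male pools (M1, M2 and M3). A whole region is dissected and pooled in such a library, so that fewer cells of a type and less RNA per cell cannot be told apart in any value below.

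miRNAs of this family are best known as markers of the epithelial state, in which they repress the transcription factors Zeb1 and Zeb2 and so keep E-cadherin expressed. In the nervous system they are known from olfactory and other sensory epithelia and from neuroendocrine tissue, and are scarce in most brain tissue. A miRNA finds its targets mainly through its seed, bases 2 to 8, and the family holds a pair of seeds that differ by a single base, one shared by miR-141 and miR-200a and the other by miR-200b, miR-200c and miR-429. The genes lie in 2 clusters, each transcribed as one unit in other tissues.

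In the RefSeq annotation of the GRCr8 assembly, the first cluster held Mir200c and Mir141 on the minus strand of chr4:159209525-159210033, a stretch of 509 bases between the protein-coding genes Phb2 and Ptpn6 and inside neither. The second held Mir200b, Mir200a and Mir429 on the minus strand of chr5:171929682-171931589, a stretch of 1908 bases within the span of Ttll10 and of the long noncoding RNA LOC106182250. The deposited values were aligned to an earlier assembly, Rn5, and no coordinates were converted. Of the 8 members, 6 matched an entry of the RefSeq sequence table. The mature 3p sequences of the chromosome 4 cluster are shown because miR-141-3p held most of the family's reads and miR-200c-3p almost none, with the seed in capitals.
miR-141-3p: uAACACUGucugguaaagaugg
miR-200c-3p: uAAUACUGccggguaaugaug
Counted from 1 at the 5′ end, with the base of miR-141-3p first, the 3p sequences differed at C4U, U9C, U11G and A17U and had the same base at 17 of 21 positions. Only C4U lies in the seed. The precursor names below count reads along the hairpins, of which the chromosome 4 pair is shown with the 3p miRNA in capitals, bases 58 to 79 of 94 in Mir141 and 45 to 65 of 69 in Mir200c.
Mir141: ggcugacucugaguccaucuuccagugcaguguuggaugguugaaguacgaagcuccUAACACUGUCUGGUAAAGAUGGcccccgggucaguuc
Mir200c: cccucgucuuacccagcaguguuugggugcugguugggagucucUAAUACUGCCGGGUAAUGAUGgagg
The 5p sequences, also with the seed in capitals, are shown because miR-141-5p and miR-200b-5p were all but absent from the libraries. miR-200a-5p has the seed of miR-200b-5p, and its level was not analysed here.
miR-141-5p: uCCAUCUUccagugcaguguug
miR-200a-5p: cAUCUUACcggacagugcugg
miR-200b-5p: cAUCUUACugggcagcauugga

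Values are in RPM, reads scaled by the authors to a total of 1000000. This total was met once by the mature names and once by the precursor names of each library, so the scales are kept apart below. The most common low value of a library was taken to show what 1 read was worth, and by this worth a library had 363141 to 1370410 mature reads. A floor of 3 reads was worth 2.33 to 8.26 RPM of a mature name in amygdala libraries, and 2.19 to 4.06 RPM in those of the ventral striatum. Intervals and floors of this kind cover counting error only. The tissue was checked with mature names of miR-124, miR-9a and miR-128, which are known from neurons and the neural lineage, and their summed level was between 27846 and 54468 RPM over all libraries.

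miR-141-3p was the one mature member read in every library. Its level in the 24 amygdala libraries ran from 13.4 to 738 RPM with a median of 32.4 RPM, and in the 24 ventral striatum libraries from 14.5 to 274 RPM with a median of 32.2 RPM. The highest value was thus 22.8 times the median in the amygdala and 8.52 times in the ventral striatum, and the medians of the regions were nearly the same. miR-200a-3p, which has the seed of miR-141, was far lower in most libraries and reached 36 RPM in the amygdala (median 2.63 RPM, 6 of 24 libraries at 0) and 142.8 RPM in the ventral striatum (median 3.97 RPM, 4 of 24 at 0). miR-200b-3p was scarcer still. It was at 0 in 14 of 24 amygdala libraries and above 3 reads in 2, with a highest value of 7.20 RPM, and in the ventral striatum it was at 0 in 10 and above 3 reads in 7, with a highest value of 28.8 RPM.

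The precursor names gave the levels of all 5 hairpins on one scale, and since a read spans a mature miRNA whole they were not divided by length. mir-141 had medians of 28.2 RPM in both regions and was above each of the other 4 hairpins in 24 of 24 libraries of either region. mir-200a had the next highest medians, 2.46 RPM in the amygdala and 4.08 RPM in the ventral striatum. mir-429, which comes from the same stretch as mir-200a, had medians of 0.70 and 2.58 RPM and was below mir-200a in 18 of 24 libraries of each region. mir-200b (medians 0 and 1.61 RPM) and mir-200c (0.865 and 1.11 RPM) followed in the ventral striatum, while in the amygdala the median of mir-200c was above that of mir-429. The order of mir-200b and mir-200c changed from library to library, with mir-200c the higher in 13 of 24 amygdala libraries and mir-200b in 11 of 24 ventral striatum libraries. mir-429 was above mir-200c in 16 of 24 libraries of the ventral striatum but in 5 of 24 of the amygdala, so that the order of these neighbours in RPM was not fixed.

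Most reads counted for a precursor were those counted for its 3p miRNA, so the precursor and mature values of one hairpin are not separate observations. Over the 24 libraries of the ventral striatum, mir-141 had 1833 reads and miR-141-3p 1757, mir-200a had 572 and miR-200a-3p 468, and mir-200b had 94 and miR-200b-3p 86. The log2(RPM + 1) values of precursor and mature name had r = 0.972 or higher in each of these hairpins in each region. The mature name miR-429, which was no member, followed mir-429 in the same way, with 246 of 248 reads in the ventral striatum and 55 of 55 in the amygdala. mir-200c was the exception. In the amygdala 5 of its 46 reads were counted for miR-200c-3p, and in the ventral striatum 3 of 47, and this mature name was at 0 in 21 and 22 of the 24 libraries. Of the 5p arms, those analysed were near the limit of detection, with 1 read of miR-141-5p in each region, 3 reads of miR-200b-5p in the ventral striatum and none in the amygdala.

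A pair of hairpins are annotated on the opposite strand of members. Mir3548 covers all 89 bases of Mir200a, and Mir3575 all 69 bases of Mir200c. Their precursor names never reached the worth of 1 read. mir-3548 was between 4.35e-07 and 4.38e-07 of mir-200a in each of the 41 libraries with mir-200a reads, and mir-3575 was between 1.34e-11 and 1.35e-11 of mir-200c in 36 libraries. Values in such fixed proportion hold no reads of their own, so both names are left out of what follows.

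What set the family apart from most other names was the spread between pools of one sex and treatment. The SD of log2(RPM + 1) between the 3 pools of a group was pooled over the 8 groups of a region, as the root of their mean variance. It was between 0.95 (mir-200b) and 1.79 (miR-200a-3p) in the amygdala, against a median of 0.44 over the 910 names tested there. Ventral striatum values lay between 0.91 (mir-200c) and 2.14 (miR-200a-3p), against a median of 0.41 over 933 names. No name of the ventral striatum had a larger spread than miR-200a-3p, and 2 had a larger one than mir-200a. The same held at higher levels. Among the 596 names with a mean of at least 10 RPM in the ventral striatum, 0 had a larger SD than miR-200a-3p and 19 had a larger one than miR-141-3p. In the amygdala 23 of 582 such names had a larger SD than miR-141-3p. The spread was part of what the family was chosen for and is given without a test.

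**Figure D1:**
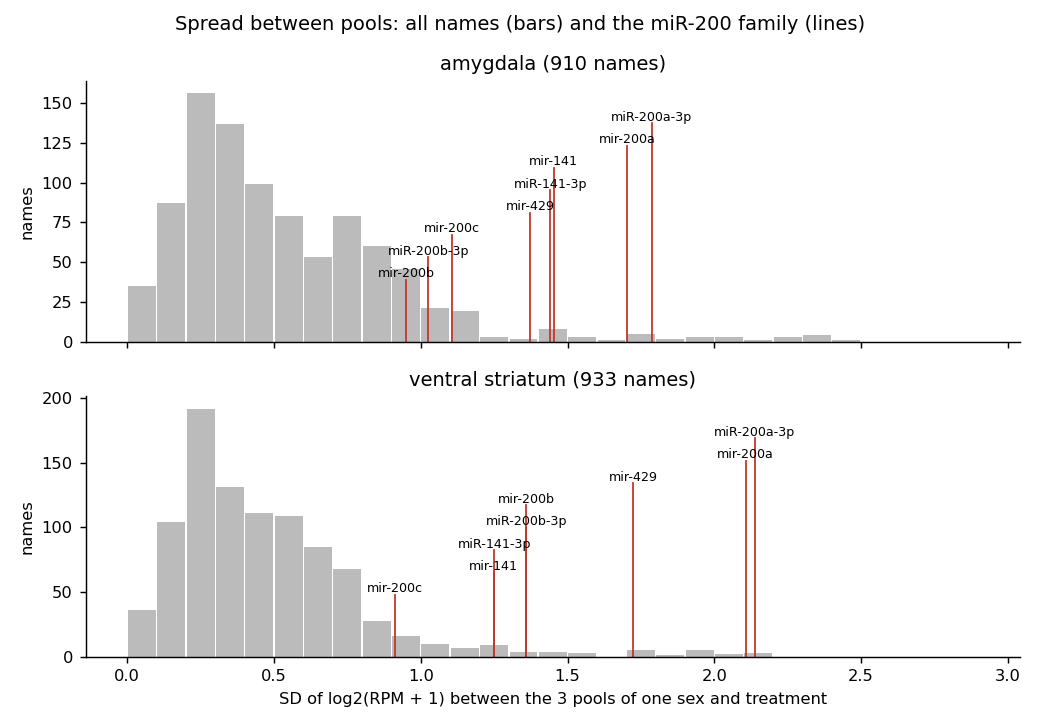
Number of names (vertical axis) by the SD of log2(RPM + 1) between the 3 pools of one sex and treatment (horizontal axis), for the 910 names tested in the amygdala and the 933 in the ventral striatum, with red lines at the 8 miR-200 names. All 8 lines lie to the right of the median of all names, from 0.95 to 1.79 in the amygdala and from 0.91 to 2.14 in the ventral striatum.

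The highest values lay in a minority of libraries, in which the family was several times higher than in the rest. The summed level of the 3 mature members had a median of 37.2 RPM over amygdala libraries and 34.9 RPM over ventral striatum libraries, and it was above 3 times the median in 4 of 24 and 8 of 24 libraries. Just inside this limit was a ventral striatum library at 3.30 times the median (ethanol-exposed non-enriched M3), and just outside it was another at 2.84 times (control socially enriched F1). In the amygdala the 4 libraries were ethanol-exposed enriched M1 at 776 RPM or 20.8 times the median, ethanol-exposed non-enriched F2 at 231 RPM, control non-enriched F1 at 157 RPM and ethanol-exposed enriched F3 at 119 RPM. The highest ventral striatum library was ethanol-exposed enriched F3 at 446 RPM or 12.8 times the median. It was followed by control enriched F3 at 274 RPM, ethanol-exposed enriched M2 at 252 RPM and F1 at 195 RPM, and by control non-enriched F3 at 174, M3 at 140 and F2 at 137 RPM. These libraries were therefore found in every treatment group of the ventral striatum, with 3 in the control non-enriched, 1 in the control enriched, 1 in the ethanol-exposed non-enriched and 3 in the ethanol-exposed enriched group. They held between 477058 and 972186 mature reads in the amygdala and between 790733 and 1204150 in the ventral striatum, within the range of the other libraries.

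The high libraries were not the same in the regions. The library numbers in the labels run in consecutive pairs of one ventral striatum and one amygdala library, and all 24 such pairs matched in sex and treatment. The labels do not say that a pair came from the same rats. Of the 24 pairs, 1 was high in both regions (ethanol-exposed enriched F3), 7 were high only in the ventral striatum and 3 only in the amygdala. Across the 24 pairs, the summed mature levels had r = 0.03 on the log2(RPM + 1) scale. The ventral striatum library next in number to the highest amygdala library, at 776 RPM, had 35.97 RPM.

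The members did not rise in one proportion. In the amygdala library ethanol-exposed enriched M1, miR-141-3p stood at 738 RPM and miR-200a-3p at 33.6 RPM, a ratio of 21.97, while in F3 of the same group they stood at 76.1 and 36 RPM, a ratio of 2.11. In ethanol-exposed non-enriched F2 the ratio was 35. The 8 high libraries of the ventral striatum had ratios between 1.92 (ethanol-exposed enriched F3, 274 and 142.8 RPM) and 9.80 (control enriched F3, 244 and 24.9 RPM). miR-200a-3p was thus at 24.9 RPM or more in every high library of the ventral striatum, while miR-141-3p was at 225 RPM beside 6.43 RPM of miR-200a-3p in one of the amygdala. mir-429 and mir-200c had their highest amygdala values, 13.5 and 16.2 RPM, in ethanol-exposed enriched M1, where mir-141 was highest too.

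**Figure D2:**
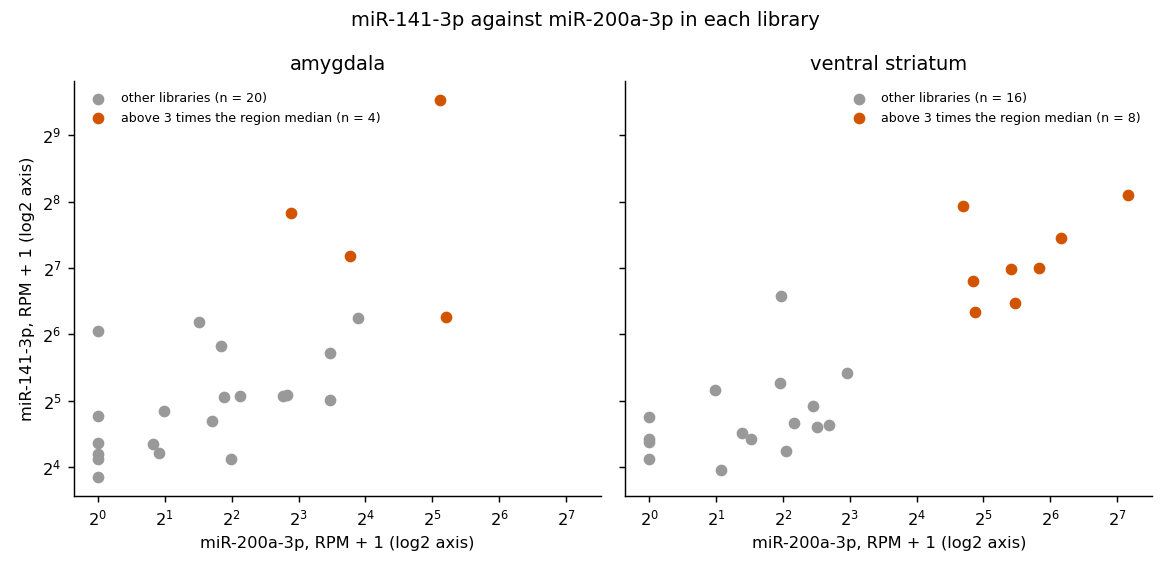
Level of miR-141-3p (vertical axis) against miR-200a-3p (horizontal axis), both as RPM + 1 on log2 axes, with 1 point per library, for the 24 libraries of each region. Orange points are the 4 and 8 libraries above 3 times the region median in summed mature level, and the highest amygdala library (738 RPM of miR-141-3p) lies far above the others at a miR-200a-3p level near that of F3 of its group.

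Across the 24 libraries of a region, which share their scaling and the group means, members moved together more closely in the ventral striatum than in the amygdala. Between different hairpins of the chromosome 5 cluster, r of log2(RPM + 1) was between 0.859 and 0.924 in the ventral striatum (median 0.882) and between 0.542 and 0.703 in the amygdala (median 0.606), over 8 pairs of names. These hairpins also had fewer reads in the amygdala. Over all its libraries mir-200b had 21 reads and mir-429 had 55, against 94 and 248 in the ventral striatum. The part of these low counts in the lower r was not tested. Within the chromosome 4 cluster it was 0.58 and between 0.467 and 0.469, over 2 pairs. Between the clusters the 15 pairs had a median r of 0.808 in the ventral striatum and 0.548 in the amygdala, above the values within chromosome 4, where mir-200c rested on few reads.

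Ethanol-exposed and control rats were first compared without enrichment [N(EvC)]. In ventral striatum libraries, miR-141-3p had a lowest value of 14.5, a median of 56.3 and a highest value of 126.2 RPM in the 6 control libraries (mean 64.5 ± 49.5 RPM, SD, n = 6), and 17.95, 20.52 and 80.2 RPM in the 6 ethanol-exposed libraries (30.5 ± 24.4 RPM, SD, n = 6). The groups overlapped, with 5 ethanol-exposed libraries at 23.9 RPM or less and M3 alone above them. miR-200a-3p had 1.12, 16.2 and 43.2 RPM in controls and 0, 2.49 and 28.2 RPM after ethanol, and mir-429 had 0.946, 8.76 and 16.4 RPM in controls and 0, 2.11 and 9.50 RPM after ethanol. The differences in log2(RPM + 1) of all 8 members were negative, from −1.73 for miR-200a-3p (SE 1.19) to −0.39 for mir-200c (SE 0.51), with a median of −0.84, against 0.01 over all 933 names. In the amygdala all 8 were negative too, from −0.79 (mir-429, SE 0.77) to −0.09 (mir-200b, SE 0.53), with a median of −0.44, against −0.08 over 910 names. With limma and Benjamini-Hochberg adjustment over all names, 0 of the 8 members and 0% of all names were called in either region. Unadjusted p-values were under 0.05 for 41 amygdala and 19 ventral striatum names. The median of the members was −0.51 in the ventral striatum without control non-enriched M3, and in the amygdala it ran from −0.84 to −0.06 with 1 library left out, the latter without ethanol-exposed non-enriched F3. By sex, all 8 differences of the ventral striatum were negative in females, where miR-200a-3p had −3.67, and 5 of 8 were positive in males, where it had 0.21. The test of the difference between the sexes is given below.

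Enriched against non-enriched rats, both ethanol-exposed [E(SvN)], gave differences of the other sign; the comparison shares its non-enriched libraries with N(EvC). Among the 6 enriched ventral striatum libraries, miR-141-3p had a lowest value of 21.96, a median of 80.7 and a highest value of 274 RPM (110 ± 102 RPM, SD, n = 6), beside the non-enriched values given above. miR-200a-3p had 0, 28.6 and 142.8 RPM (45.3 ± 56.9 RPM, SD, n = 6), and miR-200b-3p had 0, 4.25 and 28.8 RPM against 0, 0 and 6.78 RPM in the non-enriched libraries. The enriched group split, with 3 libraries (F1, F3 and M2) at 55.6 to 142.8 RPM of miR-200a-3p and the other 3 at 1.63 RPM or less, so that it held both the highest and some of the lowest values of the region. The differences in log2(RPM + 1) were positive for all 8 members, from 0.25 for mir-200c (SE 0.51) to 1.74 for miR-200a-3p (SE 1.19), with a median of 1.49, against −0.02 over all names. Of these, miR-141-3p had 1.42 (SE 0.70), mir-429 had 1.67 (SE 0.96) and miR-200b-3p had 1.51 (SE 0.76). Without ethanol-exposed enriched F3 the median was 1.10, and mir-200c, alone among the 8, turned to −0.12. miR-200a-3p ran from 0.79 without ethanol-exposed enriched M2 to 2.59 without F2 of that group. In females all 8 differences were positive, and in males 5 of 8 were negative. The adjusted test called 0 of the 8 members and 0% of all names.

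In the amygdala the same comparison gave 8 positive differences, from 0.49 (mir-200b, SE 0.53) to 1.04 (miR-200a-3p, SE 1.00), with a median of 0.63, against 0.04 over all names. Their size rested on single libraries. miR-141-3p had 16.4, 32.4 and 738 RPM in the enriched libraries (152 ± 288 RPM, SD, n = 6) and 13.4, 24.5 and 225 RPM in the non-enriched (56.3 ± 83.05 RPM, SD, n = 6). Without ethanol-exposed enriched M1 the enriched mean of miR-141-3p was 34.8 RPM, and the median of the 8 differences was 0.05, with mir-141 at −0.17 and miR-141-3p at −0.16. Without F3 of that group the median was 0.24, without ethanol-exposed non-enriched F3 it was 0.41, and without ethanol-exposed enriched M2 it was 1.13. Here too 0 of the 8 members and 0% of names were called.

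The ethanol effect in enriched rats [S(EvC)] shares its ethanol-exposed libraries with E(SvN), and the enrichment effect in controls [C(SvN)] shares its libraries with N(EvC) and S(EvC). For S(EvC) in the ventral striatum, the control enriched libraries had 16.4, 39.8 and 244 RPM of miR-141-3p (77.3 ± 85.95 RPM, SD, n = 6), 0, 3.69 and 24.9 RPM of miR-200a-3p and 0, 1.86 and 10.3 RPM of mir-429. mir-429 in the ethanol-exposed enriched libraries had 0, 15.2 and 63.1 RPM, so that 3 of 6 libraries were above every control and the other 3 among them. All 8 differences were positive, from 0.20 (mir-200c, SE 0.51) to 1.52 (mir-429, SE 0.96), with a median of 1.18, against −0.02 over all names, and the members' median was 0.60 without ethanol-exposed enriched F3 and 0.25 without M2. In the amygdala 7 of 8 were positive, from −0.06 (mir-200c, SE 0.62) to 1.54 (miR-200a-3p, SE 1.00), with a median of 0.32, which was −0.32 without ethanol-exposed enriched M1 and 0.85 without M2 of that group. For C(SvN), the direction was not common to all hairpins. In the ventral striatum 6 of 8 differences were negative, down to −1.24 for miR-200a-3p (SE 1.19), while miR-141-3p had 0.13 (SE 0.70). In the amygdala 6 of 8 were negative, down to −1.09 for miR-200a-3p (SE 1.00), while miR-200b-3p had 0.36 (SE 0.57). The positive names were those of mir-141 in the ventral striatum and of mir-200b in the amygdala, each pair resting on the same reads. Over all names the median was 0.01 in the ventral striatum and −2.44e-10 in the amygdala. With 1 library left out, the median of −0.37 in the ventral striatum ran from −0.82 (control non-enriched F1) to −0.05 (control enriched F2), and that of −0.11 in the amygdala ran from −0.43 (control non-enriched F2) to 0.07 (control non-enriched F1). Neither comparison called a member or, at 0%, any name in either region.

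**Figure D3:**
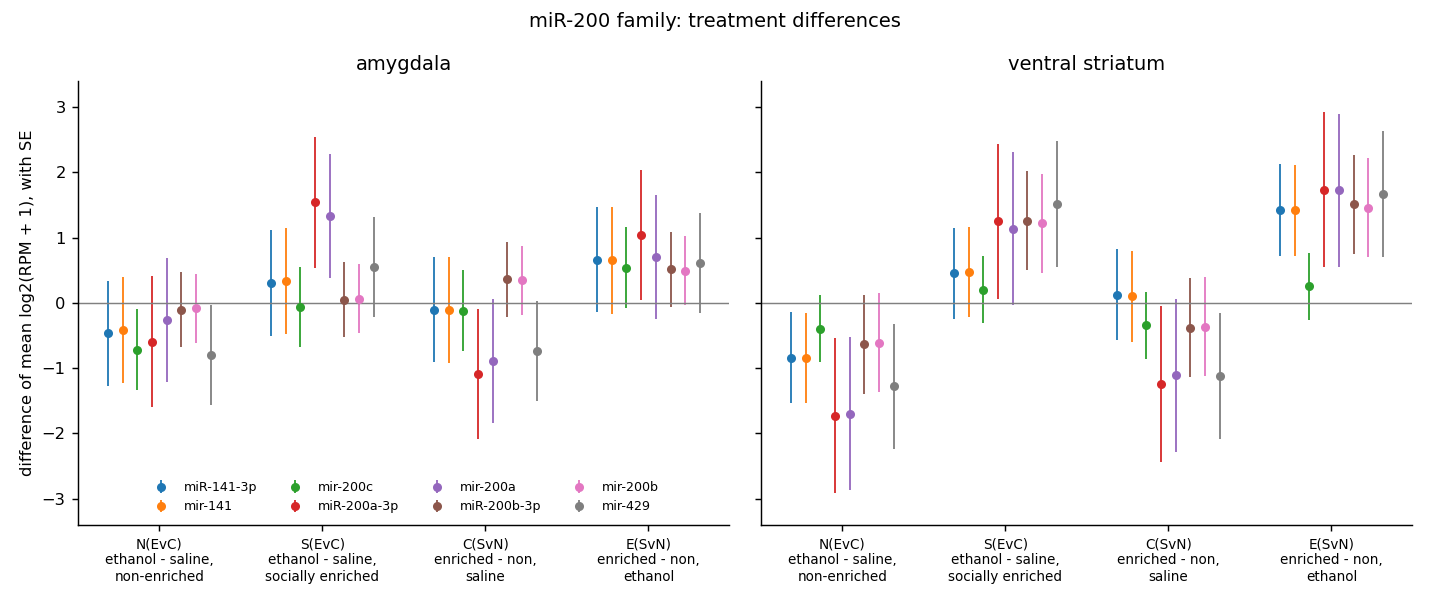
Differences of mean log2(RPM + 1) with their SE (vertical axis) for the 8 miR-200 names in the 4 treatment comparisons (horizontal axis), from limma over the 24 libraries of each region. In the ventral striatum all 8 points lie below 0 in N(EvC) and above 0 in S(EvC) and E(SvN), where the highest reaches 1.74, and in the amygdala all 8 lie between 0.49 and 1.04 in E(SvN).

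No member separated the groups of 6 libraries in any of the 8 comparisons. Over all names, the groups did not overlap for 0% in each comparison of the ventral striatum and in N(EvC) of the amygdala, for 0.22% in S(EvC), 0.33% in C(SvN) and 0.11% in E(SvN) of the amygdala.

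**Figure D4:**
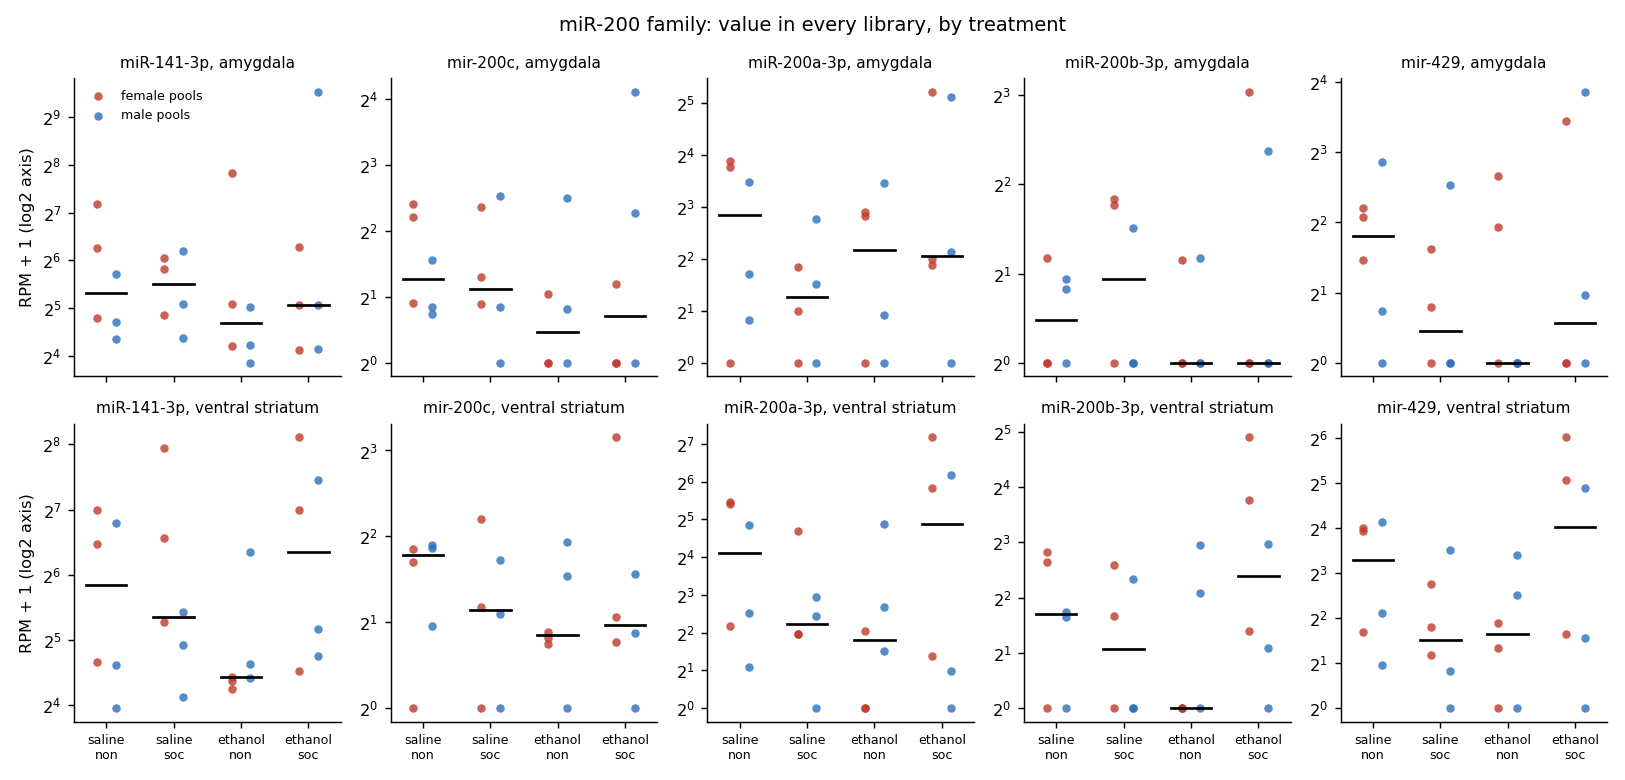
Level of miR-141-3p, mir-200c, miR-200a-3p, miR-200b-3p and mir-429 in every library, as RPM + 1 on a log2 axis with its own range in each panel, by treatment group (horizontal axis, 6 libraries each), with female pools in red, male pools in blue and the group median as a black line. Groups overlap in every panel, and the ethanol-exposed enriched group of the ventral striatum holds values of miR-200a-3p from 0 to 142.8 RPM.

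Sex was not used in choosing the family, and its main effect was tested. In the ventral striatum all 8 members had a lower mean in males. miR-141-3p averaged 49.7 RPM in 12 male and 91.3 RPM in 12 female libraries, a difference of −0.66 in log2(RPM + 1) (SE 0.49), and miR-200a-3p averaged 12.6 and 26.9 RPM, a difference of −0.67 (SE 0.84). The differences ran from −0.74 (mir-200a, SE 0.83) to −0.08 (mir-200c, SE 0.36), all with a limma adjusted p of 1, and 0% of all names were called, with 27 of 933 names at an unadjusted p under 0.05 and no member among them. In the amygdala 7 of 8 members had negative differences, from −0.45 (mir-141, SE 0.58), and mir-200c had 0.32 (SE 0.44), with adjusted p-values between 0.988 and 0.997, and 0% of 910 names were called while 38 had an unadjusted p under 0.05. The means in RPM of miR-141-3p went against the log2 difference in the amygdala, at 89.1 RPM in males and 66.2 RPM in females, with 1 male library at 738 RPM. A difference between the sexes was therefore not detectable against this spread.

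Whether a treatment difference differed between females and males was tested too, for 4 comparisons and 8 members in each region. Of the 32 values of each region, 0 were called, with 2 at an unadjusted p under 0.05 in the ventral striatum and 0 in the amygdala. Both were in E(SvN). miR-200b-3p had 0, 0 and 0 RPM in the 3 female ethanol-exposed non-enriched libraries and 1.63, 12.6 and 28.8 RPM in the 3 female enriched ones. These groups of 3 did not overlap, as for 4 of the 8 members and for 3.43% of all names in females, against 0 members and 6.11% of names in males. The 4 were the precursor and mature names of mir-200b and mir-141, each pair resting on the same reads. For mir-141 the highest non-enriched value was 19.4 RPM and the lowest enriched value 19.6 RPM. Treatment values chose the family, so this count is a description. In males miR-200b-3p had 0, 3.26 and 6.78 RPM non-enriched and 0, 1.13 and 6.87 RPM enriched. The difference in log2(RPM + 1) was 3.35 in females and −0.33 in males, and the gap of −3.68 (SE 1.52) had an unadjusted limma p of 0.0264 and an adjusted p of 1. For mir-200b the gap of −3.45 had an unadjusted limma p of 0.0362 and an adjusted p of 1. The gap was −4.76 (SE 2.38) for miR-200a-3p and −1.53 (SE 1.40) for miR-141-3p. All 8 gaps were negative, and 0.107% of all names, a single name and no member, were called in this comparison. The same share, 0.107%, was called for C(SvN) in the ventral striatum, and 0% in the other 6 comparisons of the sexes.

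Between the regions, members of the chromosome 5 cluster had positive differences toward the ventral striatum and those of chromosome 4 had differences near 0. mir-429 averaged 9.11 RPM in 24 ventral striatum and 2.32 RPM in 24 amygdala libraries, a difference of 1.16 in log2(RPM + 1) (SE 0.44). mir-200a averaged 20.6 and 6.41 RPM, a difference of 0.88 (SE 0.54), and mir-200b averaged 3.42 and 0.853 RPM, a difference of 0.81 (SE 0.33). mir-141 averaged 62.9 and 69.1 RPM, with a difference of 0.15 (SE 0.38), and mir-200c 1.62 and 2.17 RPM, with −0.03 (SE 0.29). The ranges of every member overlapped between the regions. In the limma fit over all libraries 29.5% of 942 names were called between the regions, and of the 8 members only mir-429 was. No member was called when any one of 27 of the 48 libraries was left out, and the call is a description, since values by region were known when the family was chosen.

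The names outside the family whose levels were most like its summed mature level included some, but not all, names of the miR-183 cluster. This cluster of miR-183, miR-96 and miR-182 is known from hair cells, photoreceptors and olfactory neurons. Likeness was the Pearson r of log2(RPM + 1) over the 24 libraries of a region, and the 5 highest names are given as a description. In the ventral striatum, out of 918 names compared, these were mir-3553 (r = 0.911), miR-3553 (0.91), mir-183 (0.908), mir-182 (0.880) and miR-182 (0.876). Mir3553 is annotated on the strand opposite Mir183 and overlaps it by 106 bases, and mir-183 was 0.163 of mir-3553 in all 48 libraries, so these names repeat one measurement. miR-182 ran from 84.1 to 2438 RPM in the ventral striatum with a median of 188 RPM, and its highest library was ethanol-exposed enriched F3, as for all 8 members there. In the amygdala, out of 895 names, the highest were mir-3553 (0.660), mir-183 (0.659), miR-3553 (0.61), mir-3585 (0.61) and miR-217-5p (0.534). The last 2 had a median of 0 and highest values of 3.63 and 2.70 RPM, near the worth of single reads. Not among the highest there were miR-182 (r = 0.37) and miR-96-5p (0.31), the latter at 0.81 in the ventral striatum. miR-183-5p had r = −0.07 in the ventral striatum and −0.36 in the amygdala, at no more than 6.83 RPM in either region. Its medians of 3.14e-05 and 2.01e-05 RPM were far below the worth of 1 read. The ratio of miR-183-5p to miR-3553 ran from 9.62e-14 to 8.83 over the 48 libraries. Nothing is therefore read from the r of miR-183-5p.

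**Figure D5:**
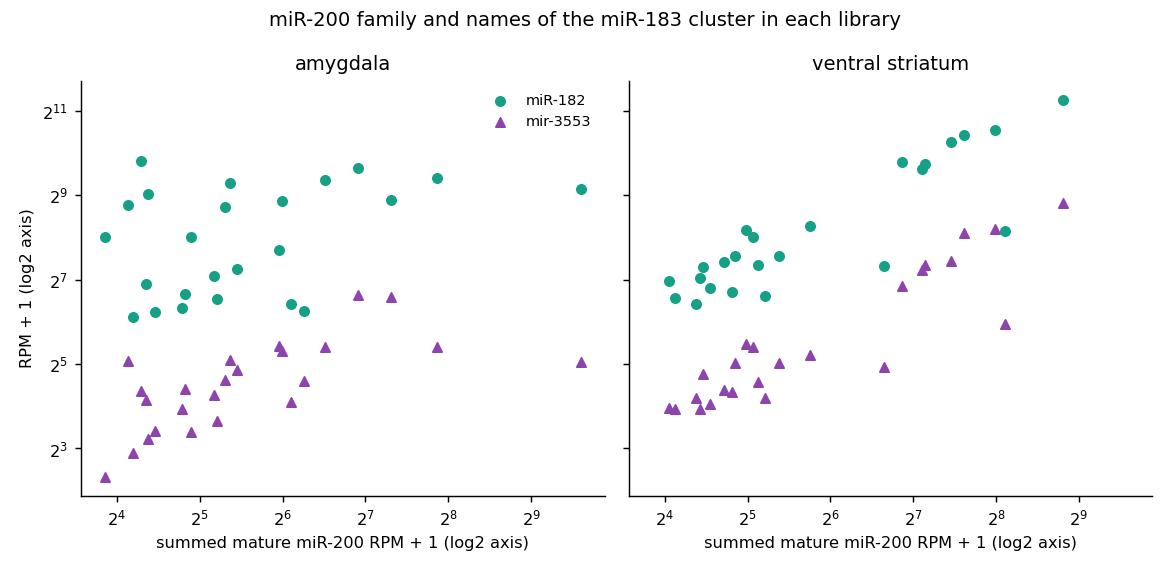
Level of miR-182 (circles) and mir-3553 (triangles) against the summed level of the 3 mature miR-200 members, all as RPM + 1 on log2 axes, with 1 point of each kind per library, in the 24 libraries of each region. Most high libraries of the ventral striatum are high in both, up to 2438 RPM of miR-182. The one at 274 RPM of the family has 281 RPM of miR-182 and 61.2 RPM of mir-3553, beside regional medians of 188 and 31.5 RPM. A library at 99.2 RPM of the family, below the limit for a high one, has 158 and 29.5 RPM. In the amygdala miR-182 runs from 470 to 803 RPM in the 4 high libraries and from 68.4 to 889 RPM in the others, with a regional median of 256 RPM.

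Control enriched F3 and F1 stood apart from this in the ventral striatum and are named after their values were seen. The family stood at 274 RPM in F3 and 99.2 RPM in F1. The summed mature names of miR-183, miR-96 and miR-182, without miR-3553, stood at 282 and 158 RPM. Nearly all of this was miR-182, at 281 and 158 RPM. The sum had a regional median of 191 RPM, against 2451 RPM in ethanol-exposed enriched F3, 1501 RPM in M2 and 1387 RPM in F1 of that group. mir-3553 stood at 61.2 RPM in control enriched F3 and 29.5 RPM in control enriched F1, with a regional median of 31.5 RPM. By treatment group, the cluster's summed level in the ventral striatum had its highest median, 779 RPM, in ethanol-exposed enriched libraries, and its lowest, 143.7 RPM, in ethanol-exposed non-enriched libraries. The medians of control libraries were 539 RPM without and 177 RPM with enrichment. Over all 24 libraries the sum had r = 0.88 with the family in the ventral striatum and 0.37 in the amygdala. In the amygdala it ran from 478 to 807 RPM in the 4 high libraries, with a median of 624 RPM. The 20 other amygdala libraries ran from 73.8 to 889 RPM with a median of 181 RPM. Of the names in the sum that passed the filter, 2 of 3 had r above 0.5 with the family in the ventral striatum and 0 of 3 in the amygdala. The name that did not in the ventral striatum was miR-183-5p, which never reached the worth of 1 read there. The part of the cluster in the treatment differences of the family was not tested.

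Further lists of miRNAs known from other cell types that a dissection could hold were compared with the family in the same way. Of 3 choroid plexus names (miR-204 and miR-211), 0 had r above 0.5 with the family in either region. Their summed level stayed at 3830 to 6993 RPM in the ventral striatum (r = 0.09) but ran from 3120 to 122570 RPM in the amygdala (r = 0.28), where the highest library, ethanol-exposed non-enriched F2, was also the one with the second highest level of the family. The other 3 high amygdala libraries stood at 29147 RPM (ethanol-exposed enriched M1), 36558 RPM (F3) and 11615 RPM (control non-enriched F1) of these names, with a median of 32852 RPM over the 4. The 20 other libraries ran from 3120 to 108040 RPM with a median of 4898 RPM. Of 5 names of ciliated and ependymal cells (miR-34b, miR-34c and miR-449a), none had r above 0.5 either, and their summed level ran from 154 to 5745 RPM in the ventral striatum (r = −0.20) and from 157 to 14274 RPM in the amygdala (r = 0.25), where the median was 7896 RPM in the 4 high libraries and 1625 RPM in the 20 others. Of the names that passed the filter in the lists for pituitary and neuroendocrine tissue (10 of 10), surface epithelium (3 of 3), muscle (4 of 5), red blood cells (3 of 4 in the amygdala and all in the ventral striatum), endothelium and mural cells (5 of 6) and microglia and leukocytes (3 of 6), none had r above 0.5 with the family in either region. The sums of these lists had r between −0.30 and 0.42. Control enriched F3 of the ventral striatum, at 274 RPM of the family, had the highest endothelial and mural sum of the region, 68078 RPM, with the next library at 43438 RPM. The surface epithelium names (miR-203a and miR-205), which go with this family in skin, had a summed level of 5.39 to 42.5 RPM in amygdala libraries (r = 0.08) and of 8.85 to 24.9 RPM in those of the ventral striatum (r = 0.09). The part of any of these cell types in the high libraries was not tested.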

How the data were processed

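RNA of pools of rats was sequenced as small RNA libraries. After trimming, reads were aligned by the authors with Bowtie to Rn5 and quantified in Partek Flow against miRBase precursor and mature names, and the authors deposited a signal per name and library in RPM, with mature and precursor values each adding up to 1000000. How reads matching several names were divided is not given in the sources used here. Where lines carried the same name (122 lines, 56 names) their values were summed, which left 612 mature and 451 precursor names. The worth of 1 read was the most common low value of a library, or a fraction of it where that gave far more whole reads. It was found apart for mature and precursor names. Between 88.1% and 99.5% of the low values of a library were whole reads within 0.1, so no count test was used.

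A name entered a region's fit when 6 or more of its 24 libraries were above 0. The fit used limma 3.58.1 (trend) in R 4.3.3 on log2(RPM + 1), and its groups were the 8 cells of sex, prenatal treatment and housing. All 8 members passed this filter in each region. P-values are two-sided and Benjamini-Hochberg adjusted over all names. The calculation was tested on simulated data. Tables and plots used Python 3.11.15 (pandas 2.3.3, numpy 2.4.6, matplotlib 3.10.9). The members and the marker lists were chosen with earlier results of these data known. Besides the members, the names of their hairpins and of the opposite strands, the 5 names most alike per region and the libraries above 3 times the region median were named by rule. The fits were repeated with median-ratio size factors, without the filter, for names averaging at least 10 RPM only, with a pseudocount of 0.1 or 10, with a replicate block, with consecutive library numbers as a random block, and without each library in turn. P-values set a difference of group means against the spread between pools.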

Additional observations from a re-analysis of the deposited data

Results flagged for a closer look

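In groups of 6 libraries, a library was singled out where its gap to the nearest other library took up more of the group's range than the 95% critical value of Dixon's test for 6 values. Gap and range were taken in RPM. The test's chance rate of about 1 in 20 groups holds for normally distributed values. The RPM values of members were not shown to be such, so this rate gives no expected count here. Of the groups of members, 15 of 64 had such a library. The spread between pools was among the values that chose the family, so this count is a description and is no test. The values of a hairpin and of its mature name rest on the same reads, and a library counts for several members.

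In the amygdala, ethanol-exposed enriched M1 stood apart in mir-141 (657 RPM, next 72.1 RPM), miR-141-3p (738 RPM, next 76.1 RPM) and mir-200c (16.2 RPM, next 3.83 RPM). Ethanol-exposed non-enriched F2 stood apart in mir-141 (201 RPM, next 30.9 RPM) and miR-141-3p (225 RPM, next 32.99 RPM). Ethanol-exposed non-enriched M2 stood apart in mir-200c (4.64 RPM, next 1.06 RPM), and its summed mature level was not among the high ones.

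In the ventral striatum, ethanol-exposed non-enriched M3 stood apart in mir-141 (69.4 RPM, next 20.6 RPM), miR-141-3p (80.2 RPM, next 23.9 RPM), mir-200a (30.4 RPM, next 5.62 RPM) and miR-200a-3p (28.2 RPM, next 5.43 RPM). Control enriched F3 stood apart in mir-141 (223.4 RPM, next 83.8 RPM), miR-141-3p (244 RPM, next 94.1 RPM), mir-200a (22.99 RPM, next 8.003 RPM) and miR-200a-3p (24.9 RPM, next 6.76 RPM). Ethanol-exposed enriched F3, the highest library of the region, stood apart only in mir-200c (7.88 RPM, next 1.96 RPM), since 2 more libraries of its group were high in the other members.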

How the results depend on the processing

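Under every alternative run, 0 members were called in any treatment comparison, for sex or for the sex difference of a treatment comparison. Between the regions 1 member was called. That count was 2 with a pseudocount of 10 (mir-429 and mir-200b), 0 without a filter, 0 with a mean of at least 10 RPM (only 4 members then tested) and 0 with median-ratio size factors, and it ran from 0 to 3 with 1 library left out; the cause was not tested. Of 72 treatment and region differences of members, 19 changed sign under at least 1 alternative, most often in S(EvC) of the amygdala (6 of 8) and never in N(EvC) of the ventral striatum (0 of 8). Differences that kept their sign could still change in size. Over all alternatives, mir-429 between the regions ran from 0.43 to 2.09. For miR-200b-3p in E(SvN) of the ventral striatum the range was 0.52 to 2.97. With 1 library left out these ranges were 0.99 to 1.33 and 1.09 to 2.00. The sex differences of miR-200a-3p (−0.62 to 0.0193), miR-200b-3p (−0.38 to 0.0751) and mir-200b (−0.36 to 0.067) in the amygdala and of mir-200c (−0.22 to 0.11) in the ventral striatum changed sign with 1 library left out. No pairing by replicate number was found: over 36 same-numbered pairs a region, the median correlation of deviations was 0.00178 (ventral striatum, 16 over 0.1) and 0.00068 (amygdala, 12 over 0.1). With the replicate block, 1 member (mir-429) was called between the regions and 0 elsewhere. In the amygdala the likeness of mir-3585 fell to 0.42 by Spearman's rho, and that of mir-183 was 0.77 without the highest library. Median-ratio rescaling moved the median of all names by less than 0.1 in each comparison. Depth limits mir-200b, mir-200c and mir-429 most: in the amygdala 2, 3 and 4 of 24 libraries had more than 3 reads of them.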
